A study of Homo sapiens with 7 samples.

Results

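The genes described here encode the subunits of RNA polymerases I, II and III, with the promoter factors that bring polymerase I and polymerase III to their genes. They were taken by symbol from the authors' gene table, on chromosomes 1 to 22 and X: the subunits named POLR1, POLR2 and POLR3 with a letter from A to L, POLR3GL, the 6 TFIIIC genes GTF3C1 to GTF3C6, the TFIIIB genes BRF1, BRF2 and BDP1, and the polymerase I factors UBTF, RRN3 and TAF1A to TAF1D. The table holds 47 such entries under 45 symbols among its 63655 genes, and 45 of these entries (44 symbols) were tested by the authors. The 2 entries that were not tested are both named POLR2J2. Another 3 entries with these symbols lie on alternate scaffolds and were left out. Genes of polymerase I under other symbols (TWISTNB, CD3EAP, ZNRD1) fall outside the rule and are counted further on as partners.

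RNA-seq of total RNA was done on HEK293, an established human embryonic kidney cell line, in which the labels give FLAG-HA tagged CNBP for every sample. CNBP is a zinc knuckle protein with affinity for G-rich RNA and DNA, and the study lowered it. The labels name 3 samples as control knockdown and 4 as CNBP knockdown, and do not say whether the line is 1 clone. The titles of the 4 carry a nested numbering that is not explained, so whether they are 4 separate cultures is not known. The table gives a pooled FPKM (a fragment count divided by transcript length and by the number of mapped fragments) under 2 headings, OE and siRNA. The siRNA column is taken to be the CNBP knockdown, going by its heading and by the design text. The heading OE is not explained, and which of the samples entered each condition is not stated, so if OE cells overexpressed CNBP each difference combines both changes. No value per sample was given, so no SD or n stands beside a level, and the depth of each sample is unknown. Where a pair of FPKM values is given, OE comes first. Every change is siRNA over OE, and the p-values and q-values are those of the authors' deposited table. CNBP itself was listed at 579.8 FPKM in OE against 45.5 FPKM in siRNA, 12.7-fold lower, and the authors' deposited table gave q = 0.00791.

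As background, the 3 nuclear polymerases divide the genome's transcription between them. Polymerase I makes the large ribosomal RNA precursor in the nucleolus, where UBTF coats the repeats, the SL1 complex with the TAF1A to TAF1D proteins marks the promoter and RRN3 carries the polymerase to it. Polymerase II makes messenger RNA. Polymerase III makes transfer RNA, 5S ribosomal RNA and other short RNAs, with TFIIIC reading promoter elements inside the gene and TFIIIB placing the enzyme at its start. The enzymes share several small subunits, and the rest of each enzyme is its own. In growing cells, polymerases I and III supply the RNA parts of the translation machinery.

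One gene of the set passed the threshold (status tested, and a q-value under 0.05). It was GTF3C6, the smallest TFIIIC subunit, which rose from 17.6 to 32.9 FPKM. No gene of the set was called lower, though 12 of the 45 tested entries had a lower value in siRNA. Over all 24822 tested genes the authors' q-values called 1.35%, with 0.572% higher and 0.782% lower in siRNA, and 1 of 45 is a share of 2.22%. At a q-value under 0.1 there were 3 of 45, or 6.67%, against 2.32% of all tested genes. At an unadjusted p-value under 0.05 there were 5 of 45 (11.1%), 3 of them higher and 2 lower, against 10.9% of all tested genes, 4.51% higher and 6.41% lower. By the unadjusted p-value the set was thus at the background, and the shares by q-value rest on 1 and 3 genes. The direction of the values leaned one way: 33 of the 45 entries (73.3%) had a higher value in siRNA, against 48.7% of all tested genes and 53% of the 13023 expressed coding genes, which are those tested and averaging 1 FPKM or more. This count carries no test. Of 105 partner genes outside the set, described further on, 67 also had a higher value in siRNA. In bulk RNA a lower level per cell and fewer cells with the transcript cannot be told apart.

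**Figure D1:**
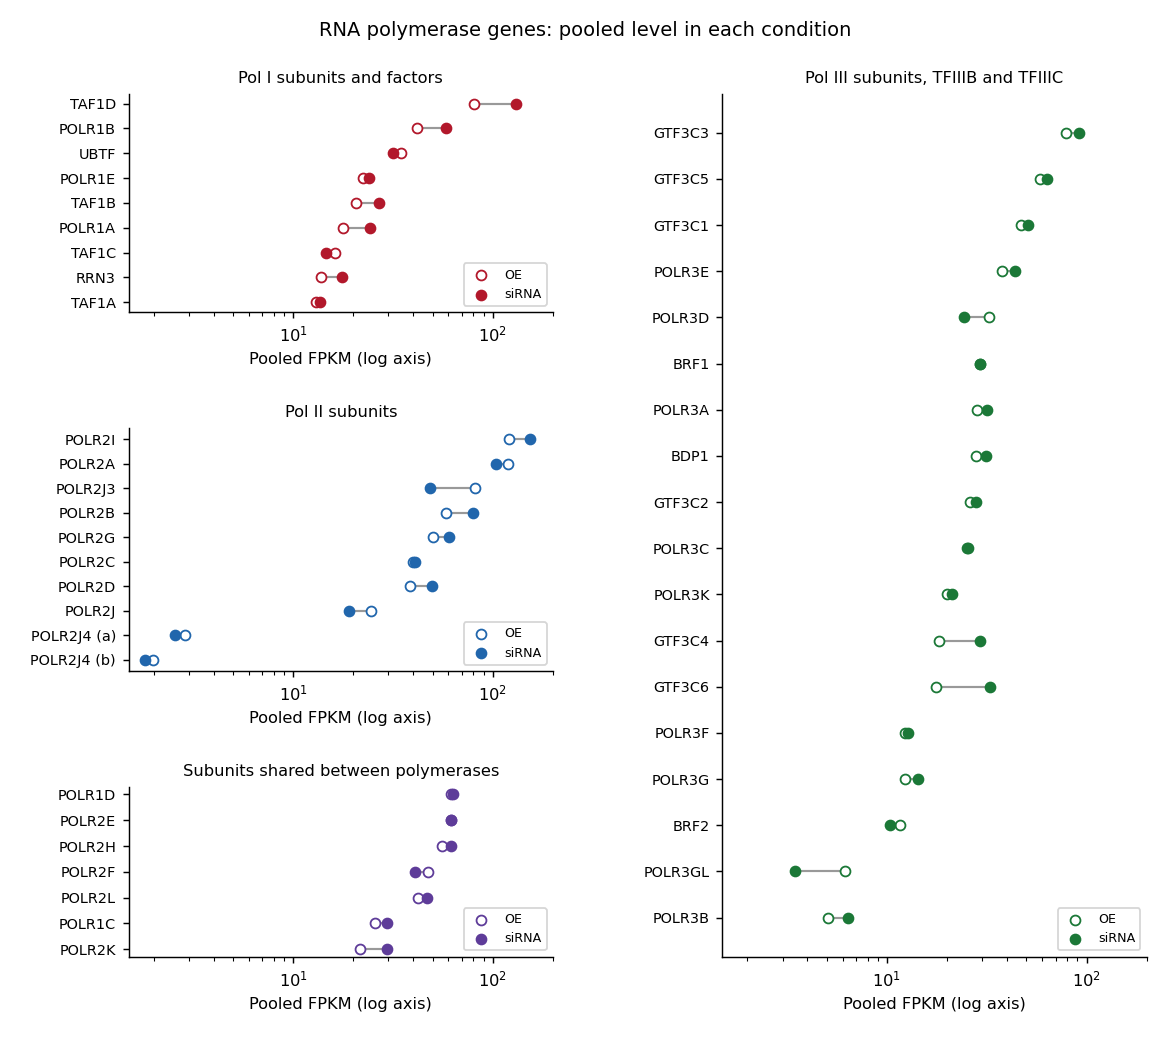
Pooled FPKM of each tested gene (log axis) in OE (open circles) and siRNA (filled circles), joined by a grey line, in 4 panels by polymerase and ordered by the OE level, with 1 polymerase III gene not shown; POLR2J4 has 2 entries, (a) ENSG00000272655 and (b) ENSG00000214783. GTF3C6, POLR3GL, POLR2J3, TAF1D and GTF3C4 show the longest lines, while POLR2E, BRF1 and POLR3C lie almost on top of themselves.

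Polymerase III and its factors made up 19 tested genes, of which 15 had a higher value in siRNA. Their median change was 0.12 on the log2(FPKM + 1) scale, which understates the change of low genes, beside -0.01 for all tested genes and 0.03 for expressed coding genes. The largest changes upward in this group were those of the TFIIIC genes GTF3C6 and GTF3C4. The other TFIIIC genes changed by 0.10 to 0.22 on that scale, less than the 0.29 of the subunit POLR3B. GTF3C6 (ENSG00000155115, chromosome 6, 111279763 to 111289093, hg19) stood at 17.6 FPKM in OE against 32.9 FPKM in siRNA, 1.87-fold or 0.87 on the log2(FPKM + 1) scale, and the authors' deposited table gave q = 0.00791. That q-value is the smallest the table holds, and 157 genes share it. The locus entry is shared with 1 small nucleolar RNA copy that was not tested. GTF3C6 was the lowest TFIIIC gene in OE, and in siRNA the lowest was GTF3C2.

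The other TFIIIC genes differed less. GTF3C4, a subunit of the DNA-binding complex with a reported acetyltransferase activity, was at 18.2 FPKM in OE against 29.1 FPKM in siRNA, 1.60-fold (q = 0.0739, the authors' deposited table), just outside the threshold. GTF3C1, the largest subunit, which contacts the internal promoter, was at 46.9 and 50.9 FPKM. GTF3C3, a scaffold subunit that contacts TFIIIB, was the most abundant of the complex at 78.5 and 91.8 FPKM. GTF3C2 was at 26.0 and 28.0 FPKM and GTF3C5 at 58.3 and 63.6 FPKM. All 6 TFIIIC genes thus had a higher value in siRNA, with 1 called, and their median change was 0.17 on the log2(FPKM + 1) scale. The ratio of the highest to the lowest FPKM among them was 4.46 in OE and 3.28 in siRNA.

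**Figure D2:**
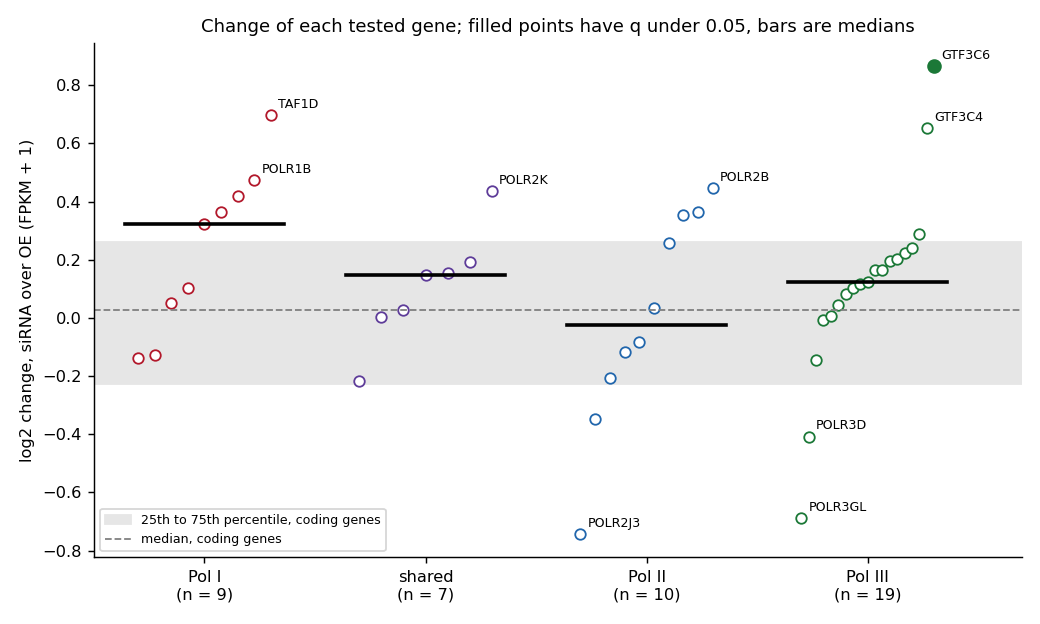
Change of each tested gene on the log2(FPKM + 1) scale, siRNA over OE, ordered by value within each group; the filled point has a q-value under 0.05, black bars are group medians, the grey band and dashed line are the 25th to 75th percentile and the median of expressed coding genes. GTF3C6 is the only filled point, at 0.87, and POLR3GL and POLR2J3 lie lowest at -0.69 and -0.74.

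The start of the GTF3C6 coding sequence is printed with those of POLR3G and POLR3GL, a paralog pair of polymerase III described next, because the study is about a protein that binds G-rich elements close to translation start sites. Each is the first 120 coding bases of the longest coding transcript in GENCODE 29, beginning with the start codon, and capitals mark TGGAG, a short G-rich word of the kind CNBP binds.
GTF3C6: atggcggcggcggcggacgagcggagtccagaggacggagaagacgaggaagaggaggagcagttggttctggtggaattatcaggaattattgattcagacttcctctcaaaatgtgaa
POLR3G: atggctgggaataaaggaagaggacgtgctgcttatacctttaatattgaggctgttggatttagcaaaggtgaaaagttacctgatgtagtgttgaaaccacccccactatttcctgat
POLR3GL: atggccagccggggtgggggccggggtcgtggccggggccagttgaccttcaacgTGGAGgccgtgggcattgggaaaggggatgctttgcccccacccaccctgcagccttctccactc

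The word TGGAG was searched on the transcript strand, anywhere in the coding sequence and with no word overlapping another. GTF3C6 holds 0 in 639 coding bases, POLR3G 3 in 669 and POLR3GL 5 in 654. GTF3C4, also higher in siRNA, holds 7 in 2466, and POLR2J3, lower in siRNA, holds 1 in the 823 bases of the table's entry. The relation of this count to the change was not tested. Among tested genes of the set with a coding sequence, 2 of 43 hold none (GTF3C6 and POLR2H), which is 4.65%, against 7.48% of 12936 expressed coding genes. The median density was 2.77 per kilobase in the set and 2.84 in those coding genes. These are counts of letters and say nothing about binding.

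POLR3G and POLR3GL encode alternative forms of the same polymerase III subunit, RPC7, so that an enzyme carries one or the other. Together with POLR3C and POLR3F it forms the heterotrimer that opens the promoter. The aligned coding sequences of the pair were identical at 60.3% of 629 positions. POLR3G (chromosome 5, 89754020 to 89810370) was at 12.3 FPKM in OE against 14.3 FPKM in siRNA (q = 0.999, the authors' deposited table). POLR3GL (chromosome 1, 145456236 to 145470388) was at 6.19 FPKM in OE against 3.47 FPKM in siRNA, 1.79-fold lower (p = 0.0021 and q = 0.0934, the authors' deposited table). The ratio of POLR3G to POLR3GL was 1.98 in OE and 4.11 in siRNA, and POLR3G made up 66.5% and 80.4% of their summed FPKM. Neither gene was called, and the ratio itself was not tested. The partners POLR3C, at 25.3 and 25.2 FPKM, and POLR3F, at 12.3 and 12.7 FPKM, differed little between the conditions.

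The rest of the polymerase III enzyme held no call. POLR3A, the largest catalytic subunit, was at 28.2 and 31.7 FPKM, and POLR3B, the second catalytic subunit, was the lowest of the enzyme at 5.06 and 6.41 FPKM. POLR3K, a small subunit that takes part in RNA cleavage and termination, was at 20.0 and 21.2 FPKM. POLR3D and POLR3E form a peripheral dimer that helps initiation and termination, and their values differed in opposite directions. POLR3E was at 37.9 and 43.6 FPKM. POLR3D was at 32.5 and 24.3 FPKM (p = 0.0664 and q = 0.519, the authors' deposited table). The highest of the 8 subunits without the RPC7 pair exceeded the lowest by 7.49 times in OE and 6.80 times in siRNA, in FPKM, with POLR3E at the top and POLR3B at the bottom in both.

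TFIIIB, which holds the polymerase at the start site, held no call. BRF1, the form used at transfer RNA and 5S genes, was at 29.2 and 29.3 FPKM. BRF2, the form used at genes with promoters outside the transcribed part such as U6, was at 11.6 and 10.4 FPKM, so that the ratio of BRF1 to BRF2 was 2.51 in OE and 2.82 in siRNA. BDP1, common to both forms of TFIIIB, was at 28.0 and 31.5 FPKM. In the authors' deposited table each of the 3 had a q-value of 0.996 or more.

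**Figure D3:**
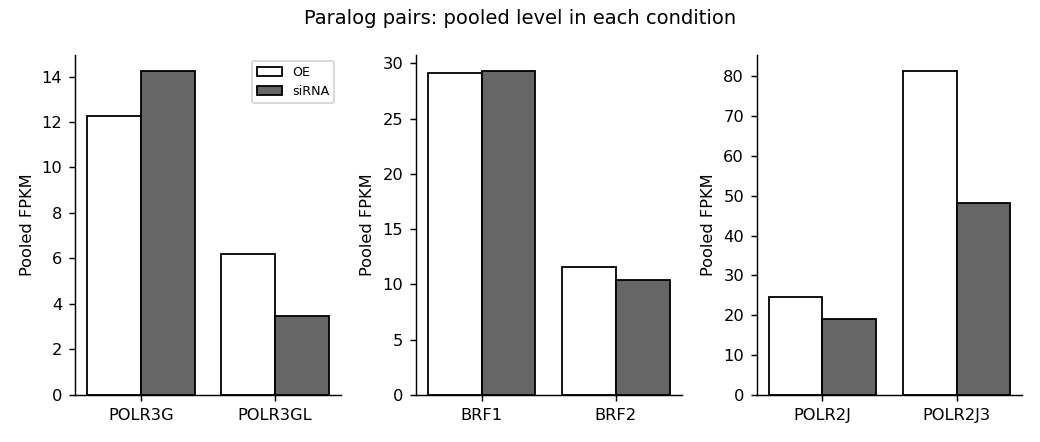
Pooled FPKM in OE (white bars) and siRNA (grey bars) for 3 pairs of paralogs, each panel with its own linear axis from 0. The POLR3GL bar is lower in siRNA and the POLR3G bar is not, the BRF1 and BRF2 bars are nearly level, and both POLR2J and POLR2J3 are lower in siRNA.

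Polymerase I and its factors made up 9 tested genes, 7 with a higher value in siRNA and none called. The median change was 0.32 on the log2(FPKM + 1) scale. POLR1A, the largest catalytic subunit, was at 17.9 FPKM in OE against 24.2 FPKM in siRNA. POLR1B, the second catalytic subunit, was at 41.7 and 58.2 FPKM, 1.40-fold (q = 0.660, the authors' deposited table). POLR1E, of the peripheral dimer that takes part in initiation, was at 22.4 and 24.1 FPKM. All 3 subunits in the set had higher values in siRNA, by 1.08- to 1.40-fold. The 3 subunits under older symbols, counted as partners, were 2 higher and 1 lower, with a median change of 0.09.

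The polymerase I factors were mixed. TAF1D, an SL1 subunit, had the widest difference of the group, at 80.2 and 131 FPKM, 1.63-fold (p = 0.0939 and q = 0.605, the authors' deposited table). Its locus entry (chromosome 11, 93394805 to 93547861) holds 17 genes, among them small nucleolar RNAs with far higher FPKM, such as SCARNA9 at 5632 and 5878 FPKM, and SNORD6 at 393 and 564 FPKM. Whether reads of these RNAs entered the TAF1D value was not tested. TAF1B was at 20.6 and 26.8 FPKM and RRN3 at 13.8 and 17.5 FPKM. TAF1A, at 13.1 and 13.6 FPKM, was the lowest of the factors in both conditions. TAF1C, at 16.2 and 14.6 FPKM, and UBTF, at 34.6 and 31.6 FPKM, had slightly lower values in siRNA. Outside TAF1D no factor differed by more than the 1.30-fold of TAF1B.

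Polymerase II had 10 tested entries, 5 with a higher and 5 with a lower value in siRNA, and none called. The median change of -0.02 on the log2(FPKM + 1) scale rested on the POLR2J family: without its 4 entries, all lower in siRNA, the other 6 subunits had a median of 0.31. Leaving out entries that are all lower raises a median by construction. With POLR2J itself kept and only its copies left out, the 7 subunits had a median of 0.26, and 5 were higher in siRNA. POLR2A, which carries the long C-terminal repeat domain, was at 119.7 FPKM in OE against 104 FPKM in siRNA. POLR2B, the second catalytic subunit, was higher in siRNA, at 58.5 and 80.1 FPKM, 1.37-fold (q = 0.832, the authors' deposited table). POLR2I, a small subunit that takes part in start site choice and proofreading, was the most abundant of the set in both conditions at 120.5 and 154 FPKM. The stalk subunits POLR2D, at 38.3 and 49.6 FPKM, and POLR2G, at 50.4 and 60.5 FPKM, both had higher values in siRNA. POLR2C, of the assembly platform, was at 39.6 and 40.6 FPKM. The ratio of the highest to the lowest FPKM among the 7 subunits was 4.92 in OE and 8.11 in siRNA, with POLR2I at the top and POLR2J at the bottom.

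POLR2J encodes the RPB11 subunit, which pairs with POLR2C, and lies near its copies POLR2J2 and POLR2J3 on chromosome 7. POLR2J was at 24.5 and 19.0 FPKM. POLR2J3 was higher than POLR2J in both conditions, at 81.4 and 48.2 FPKM, 1.69-fold lower in siRNA (p = 0.00255 and q = 0.104, the authors' deposited table). The 2 entries of POLR2J2 were listed at 0 and 0.000426 FPKM, and at 0.230 and 0.447 FPKM. The 2 entries of POLR2J4, a noncoding copy elsewhere on the chromosome, were at 1.99 and 1.82 FPKM, and at 2.86 and 2.56 FPKM. The opening 120 coding bases of the coding copies show how alike they are; capitals mark bases that differ from POLR2J in an alignment that leaves a gap in the copies after gagaag.
POLR2J: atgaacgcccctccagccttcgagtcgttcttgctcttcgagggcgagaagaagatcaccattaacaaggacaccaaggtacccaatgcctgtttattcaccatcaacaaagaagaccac
POLR2J2: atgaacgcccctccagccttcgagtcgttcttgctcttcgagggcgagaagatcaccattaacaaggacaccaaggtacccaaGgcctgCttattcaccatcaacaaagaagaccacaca
POLR2J3: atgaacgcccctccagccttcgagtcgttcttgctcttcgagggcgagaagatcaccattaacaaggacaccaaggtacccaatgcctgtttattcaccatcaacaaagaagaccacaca

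Over 322 aligned coding bases POLR2J was identical to POLR2J3 at 98.8% and to POLR2J2 at 98.1%, and the POLR2J2 and POLR2J3 sequences shared 99.4% of 345 bases. Reads from this stretch could be divided between the copies, so the level of each is uncertain. The POLR2J3 sequence printed is from ENSG00000285437, the GENCODE 29 gene of that symbol with a short coding sequence, whereas the table's entry is ENSG00000168255. The table's locus entry (chromosome 7, 102122892 to 102312088) holds 13 genes. The other tested genes of that entry also had lower values in siRNA without being called, UPK3BL at 9.14 and 3.89 FPKM (p = 0.0358 and q = 0.386, the authors' deposited table) and RASA4 at 4.96 and 3.26 FPKM. In the locus entry of POLR2J, LRWD1 was at 22.7 and 17.1 FPKM. The part of these neighbours in the POLR2J and POLR2J3 values was not tested.

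The 7 subunits shared between enzymes had a median change of 0.15 on the log2(FPKM + 1) scale, with 6 higher, 1 lower and none called. POLR1C and POLR1D, the dimer that polymerases I and III have in common, were at 25.7 and 29.5 FPKM, and at 61.7 and 62.9 FPKM. POLR2E, POLR2F, POLR2H, POLR2K and POLR2L belong to all 3 enzymes. POLR2K, a small zinc-binding subunit (chromosome 8, 101162812 to 101166230), showed the widest difference, at 21.5 and 29.5 FPKM, 1.37-fold (p = 0.0208 and q = 0.301, the authors' deposited table). POLR2E was at 61.6 and 61.7 FPKM, POLR2H at 55.5 and 61.9 FPKM, and POLR2L at 42.1 and 46.7 FPKM. POLR2F was the one with a lower value in siRNA, at 47.4 and 40.7 FPKM. In FPKM the median of the shared subunits was 47.4 in OE. This was above the medians of the enzyme-specific subunits of polymerase I (22.4, over the 3 in the set) and polymerase III (22.7, without the RPC7 pair). It was close to that of polymerase II (50.4) in OE. In siRNA the shared median was 46.7, against 24.2 for polymerase I, 23.9 for polymerase III and 60.5 for polymerase II.

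The changes within the set went with base content, as they did over all coding genes. Across the 43 tested entries with a coding transcript in GENCODE 29, Spearman's rho between GC content and change was -0.48, and across 12936 expressed coding genes it was -0.44. These are correlations across genes, which are not independent replicates, and they carry no test. Of the 21 entries with the lower GC content (34.3% to 49.4%) 19 had a higher value in siRNA, with a median change of 0.22. Of the 22 with the higher GC content (49.7% to 61.6%) 14 did, with a median of 0.07. The median of coding genes went from 0.28 in the decile with the lowest GC content to -0.23 in the decile with the highest. GTF3C6, at 46.4% GC, lay 0.80 above the median of its decile, and GTF3C4, at 44.4%, 0.52 above. POLR3GL, at 48.5%, lay below its decile's median, with a difference of -0.75, and so did POLR2J3, at 57.1%, with -0.63. Measured from these decile medians, the polymerase I genes had a median change of 0.15 in place of 0.32, and the polymerase III genes 0.14 in place of 0.12. The shared subunits had 0.16 in place of 0.15. Polymerase II had 0.12 over its 8 entries with a GC value, against -0.02 over all 10. Those 8 leave out POLR2J4 and had a median of 0.15 without the GC step, so that step did not raise it. The whole set had 0.15 over its 43 entries, in place of 0.12 over all 45. Of those 43 entries 28 lay above 0, beside 6466 of the 12936 expressed coding genes. Within polymerase III, the 6 TFIIIC genes then had a median of 0.26, all above 0. The 10 subunits had a median of -0.06 in place of 0.12, with 4 above 0, and TFIIIB -0.05 in place of 0.01. Of the 19 polymerase III genes 11 lay above their decile's median, against 15 with a higher value in siRNA. The value for POLR2A comes from a transcript with a short coding sequence of 1698 bases, and that for POLR1D from a transcript with 138 coding bases. Transcripts were chosen by their whole length among those whose coding sequence begins with ATG, so these may not be typical of their genes. The part of base content in the direction of the set was not tested.

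**Figure D4:**
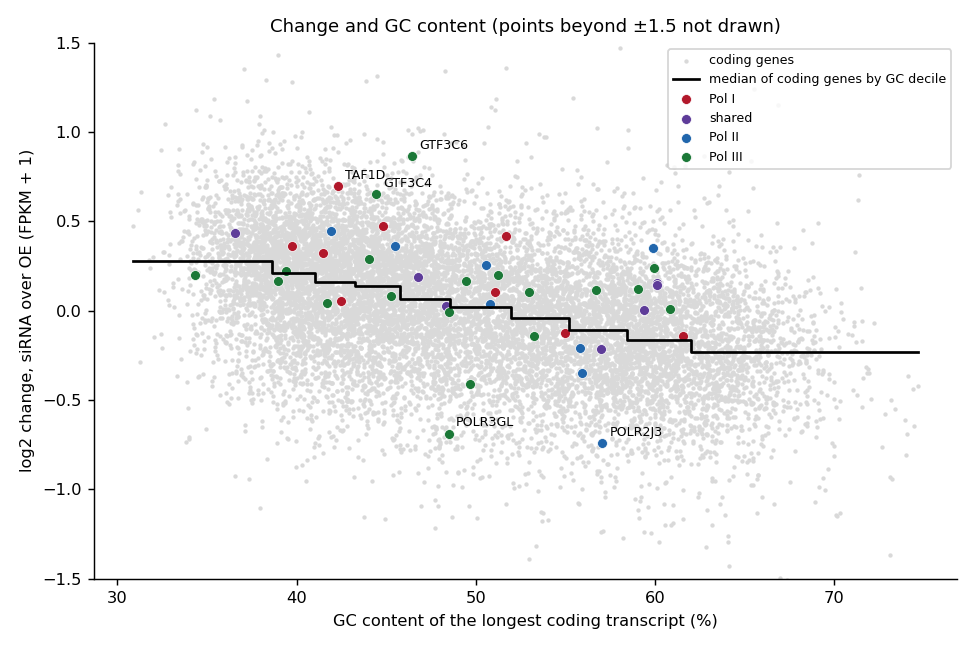
Change (log2(FPKM + 1), siRNA over OE) against the GC content of the longest coding transcript, for expressed coding genes (grey) and the tested genes of the set (coloured by polymerase); the black line is the median of the coding genes in each decile of GC content. The line falls from 0.28 to -0.23, and GTF3C6, GTF3C4 and TAF1D lie well above it while POLR3GL and POLR2J3 lie well below.

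Partners of the polymerases outside the set were taken from 7 lists with 105 tested genes, of which 0 were called higher and 2 lower. That is 1.90% called, near the 1.35% of all tested genes. RPAP1, which takes part in assembling polymerase II, fell from 50.5 to 24.0 FPKM, 2.11-fold (q = 0.0321, the authors' deposited table); it was the 1 call among 8 assembly genes, whose median change was -0.01. TAF3, a subunit of the TFIID complex, fell from 5.91 to 3.04 FPKM, 1.95-fold (q = 0.00791, the authors' deposited table), as the 1 call among 31 general transcription factors of polymerase II (median 0.12). No gene was called among 19 pausing and elongation genes (median 0.12), where CCNT2 was at 16.3 and 28.4 FPKM and NELFE at 33.6 and 21.2 FPKM. No gene was called among 30 Mediator genes (median 0.16), where CDK8, a kinase of the complex, was at 11.4 and 20.2 FPKM (q = 0.0526, the authors' deposited table), and MED18 at 14.9 and 9.19 FPKM. Measured from the GC decile medians, the assembly genes had a median of -0.07 and the general transcription factors 0.05. By the same measure it was 0.09 for pausing and elongation and 0.03 for Mediator.

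The lists on the other enzymes held no call. Of the 3 polymerase I subunits under older symbols, TWISTNB was at 15.4 and 26.1 FPKM and ZNRD1 at 35.4 and 35.0 FPKM. Of 4 polymerase I partners, TTF1, the termination factor, was at 11.2 and 13.6 FPKM, and TCOF1, a nucleolar protein needed for ribosomal RNA synthesis, at 79.8 and 47.2 FPKM (q = 0.0993, the authors' deposited table). Of 10 polymerase III partners (median 0.30), 8 had a higher value in siRNA, against 53% of expressed coding genes. Measured from the GC decile medians, these partners had a median of 0.14, with 6 of 9 above 0. SSB, the La protein that binds the ends of new polymerase III transcripts, was at 68.6 and 97.3 FPKM, and SNAPC5, of the complex that starts small nuclear RNA genes, at 19.1 and 16.1 FPKM.

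Among 12 named RNA products of polymerase III, 8 were tested and none was called; RN7SK, RN7SL1 and RN7SL2 were marked as having too much data, and RNY3 was not tested. RPPH1, the RNA of RNase P, was at 49981 and 50170 FPKM, and RMRP, the RNA of RNase MRP, at 39622 and 44279 FPKM. RNY4 was at 1480 and 2331 FPKM and RNY1 at 6069 and 8178 FPKM. Both had an unadjusted p under 0.05 in the authors' deposited table, 2 of the 8 tested, beside 10.9% of all tested genes. RNY5 differed in the opposite direction, at 9627 and 7736 FPKM (p = 0.218, the authors' deposited table). Of the 8 tested products 5 had a higher and 3 a lower value in siRNA. VTRNA1-2, a vault RNA, was at 1645 and 1114 FPKM.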

How the data were processed

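The authors deposited 1 Cuffdiff table with a pooled FPKM per gene for each of 2 conditions, and a p-value and q-value from their comparison of those conditions. Per the submitters' processing notes, TopHat, Cufflinks, Cuffdiff and hg19 were used; for versions, settings, strand handling and annotation the sources used here give nothing. Libraries were directional, per the labels' protocols. Depth per sample is unknown. The labels do not say whether samples came from separate cultures, so the q-values may measure technical spread.

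Genes with status tested (OK, 24822 of 63655) entered. A call is a q-value under 0.05 in the authors' deposited table. Changes were recomputed as log2((siRNA FPKM + 1)/(OE FPKM + 1)). Locus starts were printed after adding 1; a locus can hold several overlapping genes, and 32 of the 45 tested entries shared theirs. GC content and coding sequences came from the longest coding transcript in GENCODE 29 (GRCh38), joined by gene ID. For POLR2J2 and POLR2J3, the printed and aligned sequences were instead those nearest in length to the coding sequence of POLR2J. The GC content of POLR2J3 came from the longest coding transcript of the gene ID that the authors listed. Sequences were credited to GENCODE and no coordinates were moved between builds. GC deciles were set on tested coding genes averaging 1 FPKM or more.

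The members, groups, partner lists and rules were chosen with earlier results of these data known. In each group, the genes named were to be the calls, the highest and lowest levels, the largest changes, the paralog pairs and the catalytic subunits; most other members are also given, and 1 is counted in its group but not reported here. From each partner list, the calls and the largest change in each direction at an average of 1 FPKM or more are named. RPPH1, RMRP, RNY1 and RNY5 were chosen after their values were seen. The adjustment and the GC step were tested on simulated data. Python 3.11.15, numpy 2.4.6, pandas 2.3.3, scipy 1.17.1 and matplotlib 3.10.9 were used.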

Additional observations from a re-analysis of the deposited data

How the results depend on the processing

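The call of GTF3C6 was kept at a q-value under 0.01, with the adjustment recomputed over tested genes, and with means of at least 1 or 10 FPKM. These settings are no test of the call. Its q-value is the smallest the authors gave, and the filters on the mean reuse that q-value. The recomputed adjustment shared 336 calls with the authors' q-values, which called 336 genes. At a q-value under 0.1, where 2.32% of all tested genes pass, polymerase III and the whole set had 2 genes higher (GTF3C6 and GTF3C4) and 1 lower (POLR3GL). The polymerase I median of 0.32 was 0.15 both when measured from GC decile medians and when shared subunits were counted with it. The polymerase II median of -0.02 changed sign to 0.15 with a mean of at least 10 FPKM and 0.12 from GC decile medians. Both settings leave out the POLR2J4 entries and keep the same 8. The change of sign came with leaving these out and not with the GC step. The median was 0.31 without the POLR2J family and 0.035 with shared subunits counted. It was 0.025 with only genes alone in their locus entry, an alternative chosen after seeing the data. Medians of polymerase III (0.12 to 0.14), shared subunits (0.13 to 0.23) and the whole set (0.12 to 0.16) moved by less than 0.1 under other pseudocounts (0.1 and 5 FPKM), scaling and the same filters. All 135 single-gene changes kept their sign under other pseudocounts and scaling; the median ratio of 1.00 makes scaling no test. No paired analysis was possible because only pooled values are given, which also kept replicates from being left out in turn. Depth per sample is unknown, so its limit on the calls cannot be given.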
